A study of Mus musculus with 4 samples.

Results

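The 35 genes described here encode the enzymes and carriers that take up, activate and oxidise fatty acids and that make ketone bodies in the hepatocyte, together with targets of the nuclear receptor PPARα. They were taken by name, as a fixed list drawn up with earlier results of these data known, from the 32285 mouse genes counted in the series. By role, 18 are mitochondrial, 8 peroxisomal, 2 belong to omega oxidation, 3 act in uptake and activation, and 4 others are a cytosolic thioesterase, a ketone body enzyme, a kinase and the receptor itself. Their levels were followed in 26990 hepatocyte nuclei, out of 42877 nuclei that passed the filter, and along the axis of the liver lobule.

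The study profiled single nuclei from frozen livers of Bl/6 mice, whose age the labels do not give, by RNA-seq, with 1 library for each of 4 groups. Mice received a chow diet (CD) or a low-protein diet (LPD), in which carbohydrate stood in for the protein and fat was about the same, for 1 week before an injection and for 2 weeks after it. The groups labelled CD oncogene and LPD oncogene were injected through the tail vein with plasmids for human c-MET and an active, N-terminally shortened β-catenin and the Sleeping Beauty transposase, which inserts them into a share of the hepatocytes. The controls received a vector by the study's account, so that all 4 groups underwent hydrodynamic injection, but for the CD pair the transgene counts given below go against the labels. With 1 library a group no difference between groups has a replicate, the 2 libraries of a diet differ in their injection label, no test was run, and the 95% intervals given cover counting error only.

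Fatty acids are activated to acyl-CoA, passed into mitochondria by the carnitine shuttle, whose first enzyme CPT1A sets its pace, and shortened there step by step. Peroxisomes shorten very long and branched acyl chains and dicarboxylic acids, and the latter arise when the CYP4A enzymes of the endoplasmic reticulum oxidise the far (omega) end of a fatty acid. PPARα, active in fasting, drives many genes of all 3 routes, and several of them are read more strongly near the central vein or the portal vein of the lobule.

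Hepatocyte nuclei numbered 6749, 8177, 6415 and 5649 in the CD pair (labelled control, then oncogene) and the LPD pair (likewise), and values are given in this order throughout. Their summed depth was 45166566, 52317529, 18898182 and 17432623 molecules (UMIs, unique molecular identifiers), with medians of 5619, 4752, 2543 and 2630 a nucleus. Mitochondrial UMIs had a median share of 1.36% and 0.557% on CD but of 0.0693% and 0.0798% on LPD. Neither depth nor this share can be told apart from diet. Of the 2 human transgenes, the libraries held 100, 0, 0 and 6 UMIs in the same order, which goes against the labels of the CD pair, so libraries are named by label only. The order of the CD pair by number of nuclei is also the reverse of the one the study states. Each direction between the CD libraries therefore depends on which label is right. Pairs of libraries shared 18 to 40 barcodes, at most 0.362% of the smaller library. Levels are CPM, the UMIs of a gene summed over nuclei and scaled to a common total of mouse UMIs in the same nuclei, so fewer expressing nuclei and less RNA per nucleus cannot be told apart.

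Among the mitochondrial genes, Cpt1a (ENSMUSG00000024900, chromosome 19, 3322334 to 3385733, GRCm38) stood, with 95% intervals in brackets, at 171 (167 to 175), 423 (418 to 429), 473 (464 to 483) and 589.6 (578 to 601) CPM. Among the mitochondrial genes that passed the filter it had the widest ratio between its highest and lowest library, and the library labelled CD control was the low one. The carnitine carrier Slc25a20 was at 142, 130, 187 and 209 CPM, and Cpt2, the inner-membrane partner of CPT1A, at 51.7, 49.5, 47.3 and 59.3 CPM. The acyl-CoA dehydrogenases, which start each round of shortening, were at 23.1 to 39.7 CPM for Acadvl, 63.1 to 109 CPM for Acadl, 103 to 235 CPM for Acadm and 21.5 to 32.9 CPM for Acads.

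Hadha and Hadhb, which encode the α and β subunits of the mitochondrial trifunctional protein, lie head to head on chromosome 5. Hadha was at 137, 134, 128 and 170.03 CPM and Hadhb at 87.8, 97.3, 83.2 and 125 CPM, so both were highest under the label LPD oncogene and lowest under LPD control. Etfa, a subunit of the flavoprotein that takes the electrons of the dehydrogenases, was the one mitochondrial gene lower in both LPD libraries (165 and 153 CPM) than in both CD libraries (208 and 248 CPM). Its partner Etfb lay at 40.7 to 45.9 CPM in all 4. Acot2, a mitochondrial thioesterase, had 13 to 58 UMIs a library, or 0.688 to 2.98 CPM, and is too low to compare.

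The peroxisomal genes were led in UMIs in both CD libraries by Acaa1b (ENSMUSG00000010651, chromosome 9, 119148023 to 119157093), a thiolase that completes the peroxisomal round, at 1494 (1483 to 1506), 1611 (1600 to 1622), 725 (713 to 737) and 620.1 (609 to 632) CPM. Ehhadh (ENSMUSG00000022853, chromosome 16, 21761287 to 21787807), the bifunctional enzyme of the same route, was at 275 (270 to 280), 249.8 (246 to 254), 57.5 (54.1 to 61.0) and 84.7 (80.4 to 89.1) CPM. Both were lower in each LPD library than in either CD library. Abcd3, the peroxisomal transporter of acyl-CoA, was at 988, 815, 677 and 512 CPM, and Crot, which turns shortened chains into carnitine esters, at 589, 1118, 456 and 534 CPM. The second thiolase gene, Acaa1a, lay at 85.4 to 103 CPM and Hsd17b4, the other bifunctional enzyme, at 259 to 285 CPM, with no split by diet. Eci2, an isomerase for unsaturated chains, went the other way, at 591, 568, 896 and 1149 CPM, and had the most UMIs of the 8 in both LPD libraries.

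Of the omega oxidation pair, Cyp4a10 (ENSMUSG00000066072, chromosome 4, 115518264 to 115533649) was at 143 (140 to 147), 212 (208 to 216), 115 (110 to 120) and 134 (128 to 139) CPM. Cyp4a14 (ENSMUSG00000028715, chromosome 4, 115486200 to 115496142) was at 248 (243 to 253), 271 (267 to 276), 309 (301 to 317) and 864 (851 to 878) CPM, so the library labelled LPD oncogene stood apart from the other 3 for this gene and not for Cyp4a10. Of letters of 31 bases in annotated transcripts of Cyp4a10, 44.9% also occur in another gene, mostly in Cyp4a32, against 1.99% for Cyp4a14. Which of these near copies a read came from is uncertain for Cyp4a10. The same holds for Acaa1b, with 40.0% shared with Acaa1a, for Acot2, with 29.9% shared with Acot1, for Acot1, with 16.7% shared with Acot2, for Acaa1a, with 16.9% shared with Acaa1b, for Hadhb, with 19.5% shared with the annotated gene Gm13910, and for Etfb, with 47.3% shared with the annotated gene Gm45233.

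For uptake and activation, Acsl1, the main long-chain acyl-CoA synthetase of liver (ENSMUSG00000018796, chromosome 8, 46471037 to 46536051), was at 1585 (1574 to 1597), 1855 (1844 to 1867), 1192 (1176 to 1207) and 2358 (2335 to 2381) CPM. The lowest and the highest level were both on LPD. Acsl5, a second synthetase, was at 208, 203, 76.6 and 79.3 CPM, and Slc27a2, a transporter that also activates very long chains, at 798, 1169, 867 and 743 CPM.

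Ppara, the receptor (ENSMUSG00000022383, chromosome 15, 85734983 to 85802819), was at 1190.3 (1180 to 1200), 1746 (1735 to 1757), 1735 (1716 to 1753) and 1884 (1864 to 1904) CPM, with the library labelled CD control below the other 3. Bdh1 (ENSMUSG00000046598, chromosome 16, 31422280 to 31458901), which makes β-hydroxybutyrate, the main circulating ketone body, was at 115 (111 to 118), 94.4 (91.8 to 97.1), 246 (239 to 253) and 164 (158 to 170) CPM. Pdk4 (ENSMUSG00000019577, chromosome 6, 5483351 to 5496309), a kinase that shuts off pyruvate dehydrogenase when fat is burned, was low, at 15.9 (14.8 to 17.1), 10.9 (10.02 to 11.8), 13.9 (12.2 to 15.6) and 28.9 (26.4 to 31.5) CPM. Acot1 (ENSMUSG00000072949, chromosome 12, 84009490 to 84018371), a cytosolic thioesterase, was at 7.46 (6.69 to 8.30), 8.87 (8.08 to 9.71), 8.73 (7.45 to 10.2) and 20.7 (18.6 to 22.96) CPM. Both low genes were highest under the label LPD oncogene.

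**Figure D1:**
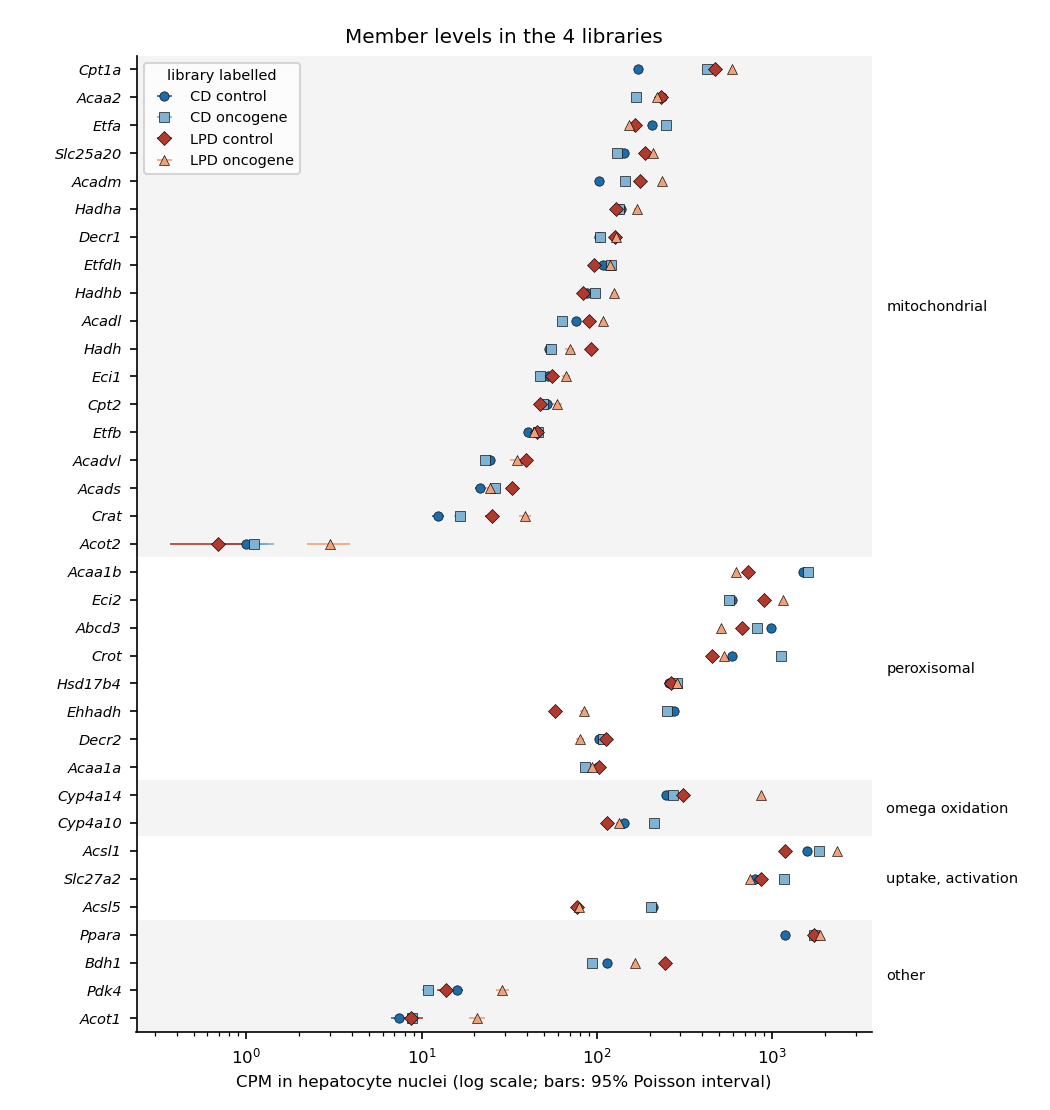
Level of each of the 35 genes in hepatocyte nuclei (CPM, log axis) with 1 symbol for each of the 4 libraries and 95% Poisson intervals, grouped by role. Ehhadh, Acaa1b and Acsl5 lie lower in both LPD libraries than in both CD libraries, while Cpt1a is low in the library labelled CD control alone.

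Free RNA from broken cells reaches every droplet, so the same genes were read in nuclei of other cell types. In the non-hepatocyte nuclei Cpt1a was at 82.1, 208, 198 and 205 CPM and Acaa1b at 624, 623, 273 and 176 CPM, so both repeated the order seen in hepatocytes between the library labelled CD control and the rest, or between the diets, at a lower level. Of the 35 genes, 24 were at least 1.5-fold higher in hepatocyte nuclei than in the others in all 4 libraries. The share of all genes that met this rule was not counted. Acot2 was below the level of other nuclei in all 4 libraries, on at most 58 UMIs, and Etfb in both CD libraries, so neither level can be read as hepatocyte expression above background. For Crat, Acads and Acadvl the log2 ratio of hepatocyte to other nuclei was 0.09, 0.18 and 0.19 in the lowest library, each with an interval that reached below 0. For Acsl5 it was 0.73 in both CD libraries, and 0.09 (-0.16 to 0.35) and 0.10 (-0.10 to 0.31) on LPD, where its level could not be told from that of other nuclei. By the same ratio the hepatocyte marker Alb stood at 0.08, -0.41, 0.34 and 0.69, and the marker Apoa2 at -0.51, -0.67, -0.27 and 0.04. The marker Hnf4a stood at 1.38, 1.14, 1.67 and 2.13. A ratio near or below 0 therefore does not show that hepatocytes lack a gene's expression.

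The start regions of a few genes on which the results turn are given so that their composition can be read beside their levels. RefSeq windows (GRCm38.p6, 250 bases before to 50 bases after the start, read along the gene) were at hand for 29 of the 35 genes. The windows shown are those of Cpt1a (chr19:3323051-3323350, plus strand), Hadha (chr5:30154931-30155230, minus strand), Ehhadh (chr16:21787785-21788084, minus strand), Acaa1a (chr9:119341044-119341343, plus strand), Acaa1b (chr9:119157044-119157343, minus strand) and Pdk4 (chr6:5496229-5496528, minus strand), with each CG dinucleotide in capitals:
Cpt1a: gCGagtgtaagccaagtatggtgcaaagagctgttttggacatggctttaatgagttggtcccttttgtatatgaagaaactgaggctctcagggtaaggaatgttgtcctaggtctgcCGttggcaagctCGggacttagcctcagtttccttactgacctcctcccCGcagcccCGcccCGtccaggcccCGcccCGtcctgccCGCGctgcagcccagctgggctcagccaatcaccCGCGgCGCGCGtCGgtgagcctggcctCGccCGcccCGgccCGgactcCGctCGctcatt
Hadha: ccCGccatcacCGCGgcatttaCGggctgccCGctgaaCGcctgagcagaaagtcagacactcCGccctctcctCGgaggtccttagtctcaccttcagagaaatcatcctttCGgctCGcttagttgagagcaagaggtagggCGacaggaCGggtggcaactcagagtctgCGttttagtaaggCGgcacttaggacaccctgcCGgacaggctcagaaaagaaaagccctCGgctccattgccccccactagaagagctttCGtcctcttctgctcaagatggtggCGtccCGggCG
Ehhadh: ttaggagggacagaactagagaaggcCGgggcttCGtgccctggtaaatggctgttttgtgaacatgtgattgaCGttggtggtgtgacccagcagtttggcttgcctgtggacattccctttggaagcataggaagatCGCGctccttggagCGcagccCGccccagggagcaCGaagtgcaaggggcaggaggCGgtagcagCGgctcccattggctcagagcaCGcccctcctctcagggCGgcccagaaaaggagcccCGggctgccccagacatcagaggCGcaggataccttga
Acaa1a: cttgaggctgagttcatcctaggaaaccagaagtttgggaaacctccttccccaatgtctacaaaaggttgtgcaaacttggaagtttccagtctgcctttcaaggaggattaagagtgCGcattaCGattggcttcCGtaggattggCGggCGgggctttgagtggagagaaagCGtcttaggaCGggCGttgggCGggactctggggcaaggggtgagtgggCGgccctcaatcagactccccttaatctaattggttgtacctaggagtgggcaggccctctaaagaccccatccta
Acaa1b: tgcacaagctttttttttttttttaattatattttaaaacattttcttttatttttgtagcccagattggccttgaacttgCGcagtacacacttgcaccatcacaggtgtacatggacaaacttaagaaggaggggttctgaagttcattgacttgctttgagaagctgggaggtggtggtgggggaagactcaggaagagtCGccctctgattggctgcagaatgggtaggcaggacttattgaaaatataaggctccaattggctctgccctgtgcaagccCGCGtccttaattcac
Pdk4: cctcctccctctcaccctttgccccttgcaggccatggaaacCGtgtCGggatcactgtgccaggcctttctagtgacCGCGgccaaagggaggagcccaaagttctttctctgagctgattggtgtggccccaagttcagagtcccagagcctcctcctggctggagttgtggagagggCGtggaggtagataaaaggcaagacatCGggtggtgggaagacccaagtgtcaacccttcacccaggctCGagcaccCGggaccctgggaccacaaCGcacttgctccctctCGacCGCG
The window of Hadhb overlaps that of Hadha by 228 bases on the opposite strand, and 85 bases separate the annotated genes. The windows of all members held a median of 16.5 CG dinucleotides, against 7 over all 32851 windows. Acaa1b held 4 and its near copy Acaa1a 10, at the low end, while the windows of Abcd3 held 42 and 45. PPARα binds paired sites of the form AGGTCA that lie 1 base apart. A pair of AGGTCA in the same direction with any 1 base between them, read on both strands, occurred in 0 of the 32 member windows and in 0.0396% of all windows, and a pair of AGGNCA with the same gap in 0 and in 0.381%. The letters TATAAA were in 0 member windows and in 13.6% of all. A single AGGTCA was found in 4 member windows (12.5%), those of Cpt1a, Acadm, Acadvl and Slc27a2, against 16.3% of all windows. These windows are short, and the counts say nothing of sites outside them.

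Zone was compared inside each library, so that both sides of a ratio have the same diet and label. Each hepatocyte nucleus was ranked by the share of pericentral markers among its zone marker UMIs (27 markers, none of them a member), and each library was cut into 3 equal ranks, whose ends were called periportal-like and pericentral-like. Of the hepatocyte nuclei, 6431, 8131, 6292 and 5129 held enough marker UMIs to be placed. Diet and injection may also have acted on the markers of the ranking, and their part in the placement was not tested. Of these markers, Hal was at 597, 868, 606 and 194 CPM in the periportal-like ends. Glul, used for the ranking, was at 945, 152, 334 and 508 CPM in the pericentral-like ends. In the library labelled CD control 45.2% of that end came from another cluster (cluster 8) than the one that led it elsewhere (cluster 3). Its periportal-like end was led by cluster 0 (46.3%), whose top genes were all of the mitochondrial genome, while cluster 1 led that end elsewhere. In this library the median mitochondrial share was 2.33% in the periportal-like and 0.930% in the pericentral-like end. The ends thus do not cut the lobule at the same place in each library, and the part of cluster 0 in the zone ratios was not tested. Under the label LPD control 2201 nuclei had a score of 0, so its whole periportal-like end was drawn among them. Median depth was higher at the pericentral-like end, at 6266, 6213.5, 2868 and 3263 UMIs against 5741.5, 4623, 2171 and 2394 UMIs, and its part in the zone ratios was not tested.

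Among the roles, the omega oxidation pair differed most by zone. Here and later, a log2 ratio given with an interval has nothing added, while the 1.5-fold rule and the medians of lists use ratios with 5 CPM added. Cyp4a10 was at 82.8, 102, 47.7 and 65.9 CPM in the periportal-like ends and at 227, 353, 210.2 and 224 CPM in the pericentral-like ends. Its log2 ratios were 1.45 (1.36 to 1.55), 1.80 (1.72 to 1.87), 2.14 (1.94 to 2.34) and 1.77 (1.59 to 1.95). Every pericentral-like value lay above every periportal-like value. Cyp4a14 rose from 122, 91.02, 136 and 567 CPM to 416, 489, 529 and 1232 CPM, with log2 ratios of 1.77 (1.69 to 1.85), 2.43 (2.35 to 2.51), 1.96 (1.84 to 2.07) and 1.12 (1.06 to 1.18). In the library labelled LPD oncogene its periportal-like level was thus above the pericentral-like level of the other 3, and its zone ratio was the smallest. Over 5 equal ranks of the zone score, the last 2 steps were the largest for both genes in each library, as from 109.8 to 217.7 and 422.6 CPM for Cyp4a10 under the label CD oncogene.

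Of the 34 genes that passed the filter on low values, 5 (14.7%) were at least 1.5-fold higher in the pericentral-like end in all 4 libraries, and none was at least 1.5-fold lower in all 4. Of the wider list of 52 genes of the same pathways 46 passed, with 2 higher (4.35%) and 1 lower (2.17%). Over the 7526 genes that passed the same filter, 2.11% were higher by this rule and 1.71% lower. Beside the CYP4A pair these were Acaa1b, Pdk4 and Acot1. Acaa1b was at 848, 1003, 449 and 374 CPM in the periportal-like and at 2299, 2287, 1112 and 920.5 CPM in the pericentral-like ends, with log2 ratios of 1.44, 1.19, 1.31 and 1.30 that varied little between libraries. Pdk4 went from 1.46, 3.85, 9.12 and 21.5 CPM to 39.3, 19.7, 20.8 and 35.5 CPM, so its periportal-like level differed more between libraries than its pericentral-like level. Its log2 ratios were 4.75 (4.13 to 5.46), 2.35 (1.97 to 2.76), 1.19 (0.70 to 1.70) and 0.73 (0.38 to 1.08). Acot1 went from 2.22, 4.22, 2.72 and 7.50 CPM to 13.3, 14.4, 19.5 and 37.0 CPM. It passed the filter through that last value alone, and Pdk4 mostly through its pericentral-like values, so their calls were in part fixed by the filter. Among genes whose mean over the 4 libraries also reached 20 CPM, a filter chosen after the data were seen, 3 of 32 members (9.38%) and 1.96% of all genes were called higher.

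**Figure D2:**
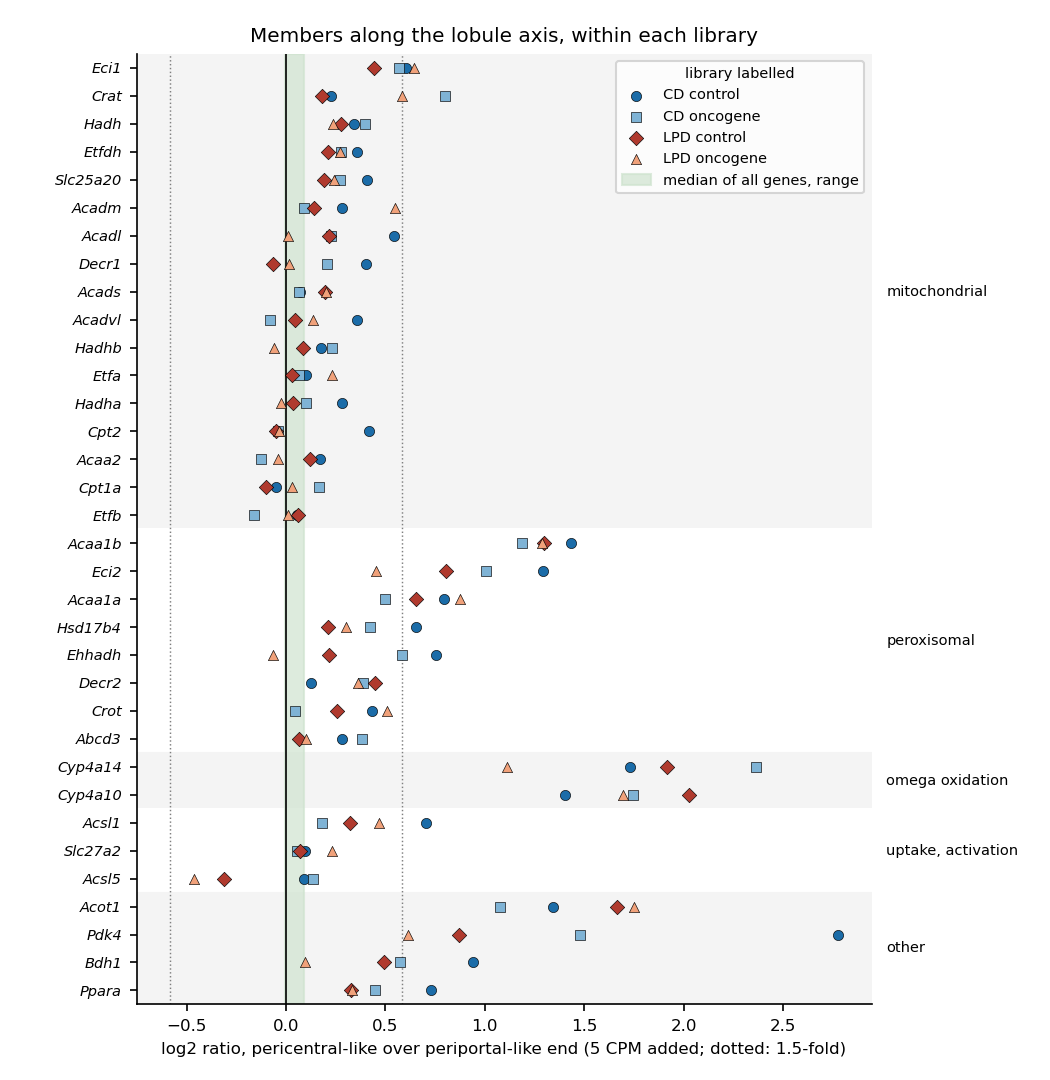
Log2 ratio of the pericentral-like over the periportal-like end for the 34 genes that passed the filter (5 CPM added to each level), with 1 symbol a library, dotted lines at 1.5-fold and the range of the median of all genes as a green band. Cyp4a14, Cyp4a10, Acaa1b, Acot1 and Pdk4 lie past the right dotted line in all 4 libraries, and each of the 17 mitochondrial genes lies short of it in at least 1 library.

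The routes ranked in the order omega, peroxisomal, mitochondrial by their median over zone (all log2 ratios with 5 CPM added). The median was 1.75 as the mean over the 4 libraries for the omega pair (1.40 to 2.06), 0.48 for the 8 peroxisomal genes (0.35 to 0.70) and 0.17 for the 17 mitochondrial genes that passed (0.12 to 0.28). Over all genes it was 0.04 (-0.0050 to 0.09). The range of the mitochondrial median thus lay above that of all genes, by a small step. Of the 17 genes, 9 were above 0 and 0 below it in all 4 libraries, and none passed 1.5-fold in all 4. Of all genes, 26.4% were above 0 and 15.2% below it in all 4 libraries. Cpt1a was nearly level over the lobule, at 176, 396, 489 and 583 CPM in the periportal-like and 170.3, 444, 456 and 596 CPM in the pericentral-like ends. The mitochondrial gene with the largest change shared by all libraries was Eci1, the mitochondrial counterpart of Eci2, with log2 ratios of 0.60, 0.57, 0.44 and 0.64 (5 CPM added).

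Among peroxisomal genes, 7 of 8 were higher in the pericentral-like end in all 4 libraries, against the 26.4% of all genes given above, and the exception was Ehhadh. Its zone ratio was 0.77 (0.70 to 0.83) and 0.60 (0.54 to 0.66) on CD. On LPD it was 0.24 (0.01 to 0.46) in the library labelled control and -0.07 (-0.27 to 0.12) in the one labelled oncogene. Eci2 had ratios of 1.31, 1.01, 0.81 and 0.46 in the same order. Acsl5, the synthetase, was nearly level on CD, at 0.09 (0.02 to 0.16) and 0.14 (0.07 to 0.20), and lower in the pericentral-like end on LPD, at -0.34 (-0.53 to -0.14) and -0.50 (-0.70 to -0.29). On LPD, however, the level of Acsl5 could not be told from that of other nuclei. Whether these ratios differ between diets beyond the spread between mice was not tested. Ppara itself was higher in the pericentral-like end in each library, with ratios of 0.73, 0.45, 0.32 and 0.33, and Bdh1 with 0.98, 0.61, 0.50 and 0.10, the last with an interval of -0.04 to 0.24.

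**Figure D3:**
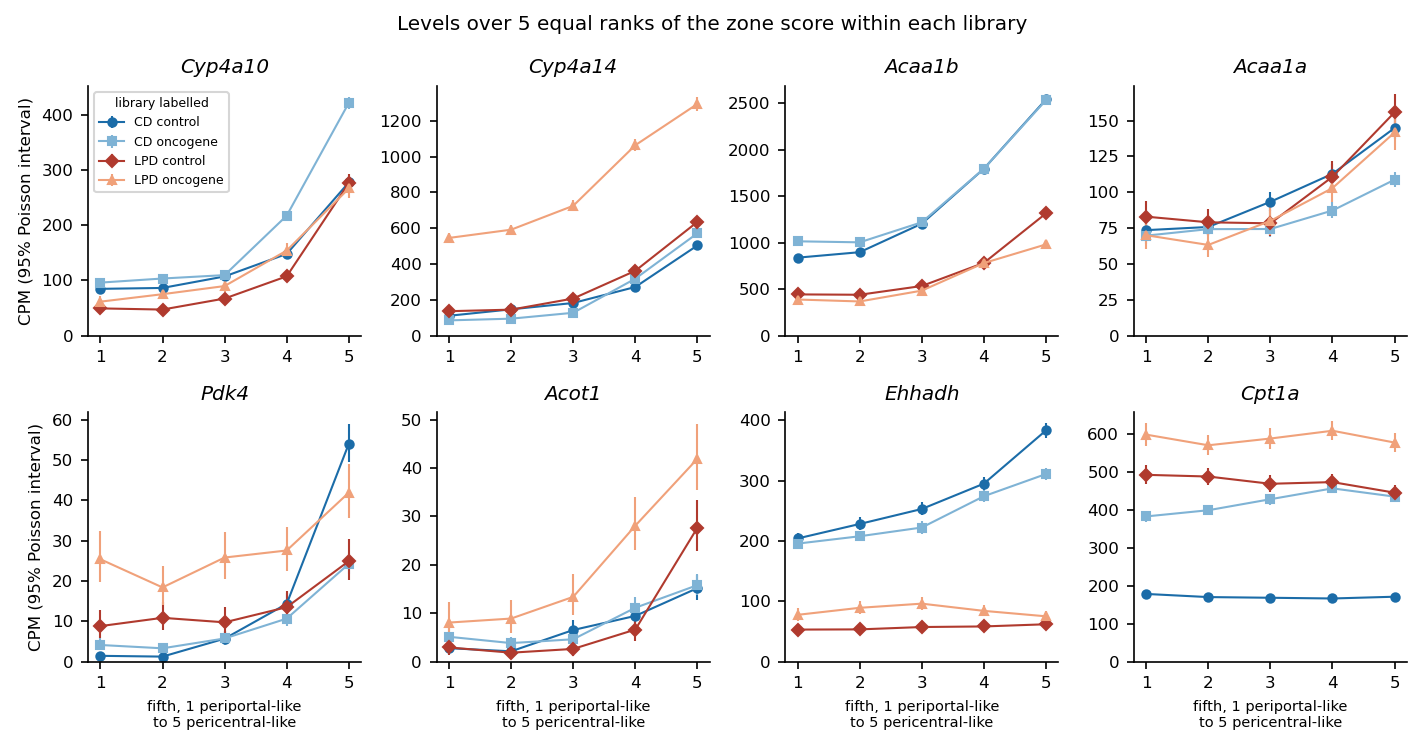
CPM of 8 genes over 5 equal ranks of the zone score in each library, from periportal-like (1) to pericentral-like (5), with 95% Poisson intervals. Cyp4a10 and Acaa1b climb in every library, Ehhadh climbs in the CD libraries and is low in the LPD libraries, and Cpt1a is flat, with the library labelled CD control lowest.

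Diet was compared by setting each LPD library against each CD library, which gives 4 pairs that share libraries and are not replicates, but do not depend on how the CD pair is labelled. All genes together had a median log2 ratio of 0.19 (0.13 to 0.24 over the pairs), and differences below that size are within the shift. Of the 34 genes that passed, 1 (2.94%) was at least 1.5-fold higher on LPD in all 4 pairs and 3 (8.82%) at least 1.5-fold lower. Over 7221 genes the shares were 8.92% higher and 3.12% lower. The higher share of the members was thus below that of all genes and the lower share above it, on counts of 1 and 3.

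The 3 lower genes were Ehhadh, Acsl5 and Acaa1b. Ehhadh, at 275 and 249.8 CPM on CD against 57.5 and 84.7 CPM on LPD, had log2 ratios of -2.26 to -1.56 over the pairs. Acsl5 had ratios of -1.44 to -1.35 and Acaa1b of -1.38 to -1.04. The same 3 were called lower in each zone taken alone. They were 9.09%, 9.09% and 8.82% of the members that passed in the periportal-like, middle and pericentral-like ranks, against 3.12 to 3.25% of all genes. The zones are parts of the nuclei in which these genes were first called, so the repeat is no separate support. For Acsl5 the LPD levels are those at which hepatocytes did not stand above other nuclei. Another 4 members were lower in all 4 pairs without reaching that size in each. By their smallest difference they were Etfa, with -0.68 to -0.33, Abcd3, with -0.94 to -0.27, Crot, with -1.29 to -0.14, and Cyp4a10, with -0.85 to -0.099 (5 CPM added).

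The single higher gene was Eci2, with ratios of 0.60 to 1.01. It is a close call. No member was higher in all 4 pairs with TMM factors (edgeR's scaling for composition), with a stricter filter of nuclei, or with the clusters led by haemoglobin genes added to the hepatocytes. Next came Bdh1 (0.50 to 1.34), Crat (0.49 to 1.34), which handles acetyl groups on carnitine, Acadvl (0.44 to 0.67) and Slc25a20 (0.39 to 0.67), each with 5 CPM added. Crat and Bdh1 passed 1.5-fold in all pairs within the periportal-like end, as did Pdk4 and Eci2, so 4 genes were called higher there, against 0 within the pericentral-like end. Over all genes, 10.5% were higher on LPD in the periportal-like and 7.59% in the pericentral-like end. In the periportal-like end Crat (9.92 and 10.4 CPM on CD, 23.7 and 28.1 CPM on LPD) and Pdk4 (1.46 and 3.85 CPM against 9.12 and 21.5 CPM) passed the filter through LPD values only. With the filter on the mean level, 3 of 32 members (9.38%) and 10.1% of all genes were called higher in that end, so the count is near the background.

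**Figure D4:**
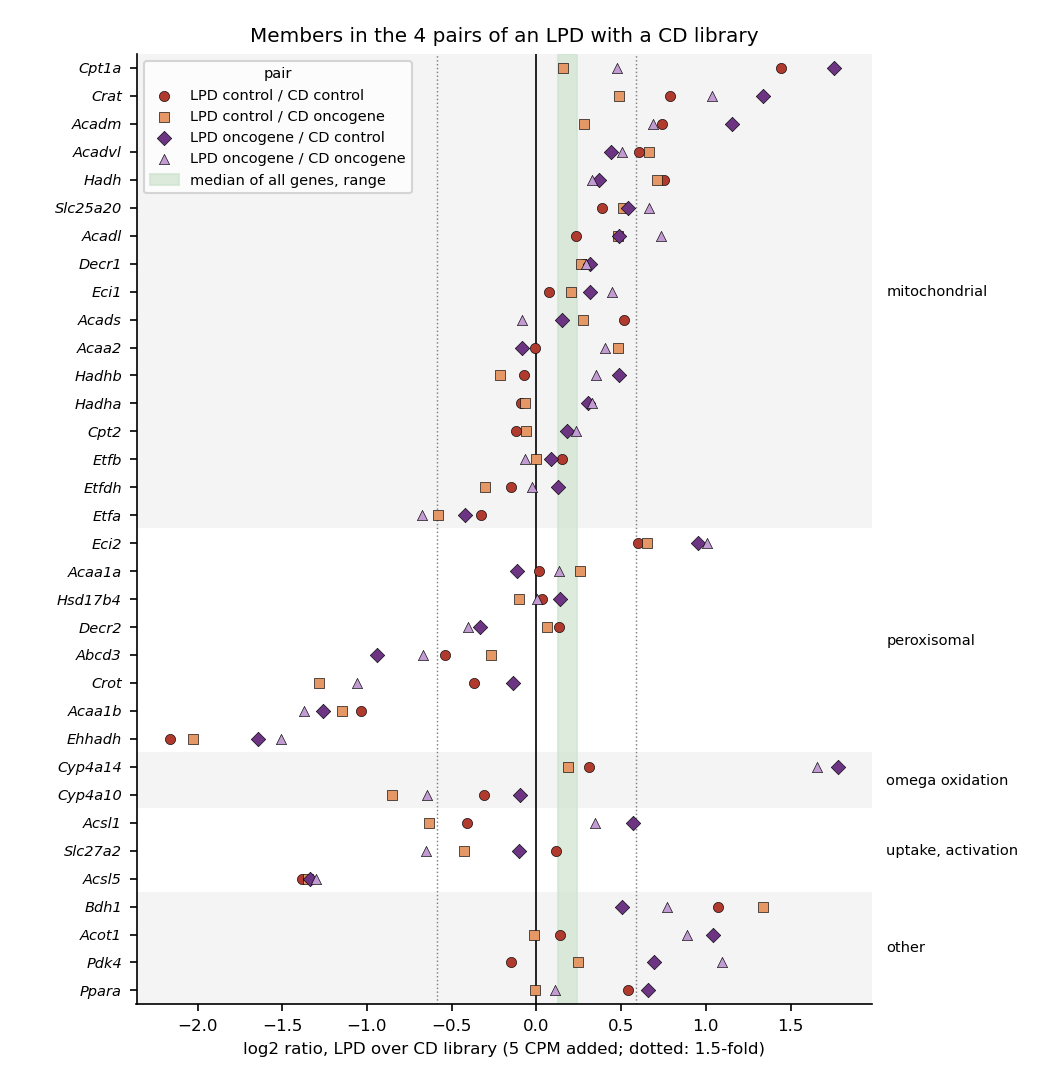
Log2 ratio of LPD over CD for the 34 genes that passed the filter (5 CPM added), with 1 symbol for each of the 4 pairs of libraries, dotted lines at 1.5-fold and the range of the median of all genes as a green band. Ehhadh, Acaa1b and Acsl5 lie past the left dotted line in all 4 pairs, and 9 of the 17 mitochondrial genes lie to the right of 0 in all 4.

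By role, the mitochondrial median was 0.29 (0.23 to 0.35 over the pairs), above the 0.19 of all genes, and the peroxisomal median was -0.28 (-0.54 to -0.18). With TMM factors the first was 0.12 and the second -0.46, and without the library labelled LPD oncogene the second was -0.18. Both lists spanned both directions: 9 of 17 mitochondrial genes were higher and 1 lower in all 4 pairs, and 1 of 8 peroxisomal genes was higher and 4 lower. Of all genes, 46.8% were higher and 17.8% lower in all 4 pairs. Summed over its genes, the mitochondrial list was at 1627, 1897, 2099 and 2402 CPM. The peroxisomal list was at 4400.1, 4840.4, 3293 and 3359 CPM. Without TMM factors neither sum overlapped between the diets, and the shares just given show that such a split was common among single genes. The TMM factors were 0.897 for the library labelled CD oncogene and 1.06 for LPD control. Dividing by them reverses the order of the mitochondrial sums of these libraries, so that split depends on the scaling. The omega pair did not share a direction, since Cyp4a10 was lower in all pairs, by -0.88 to -0.10, and Cyp4a14 higher, by 0.19 to 1.80. For Cyp4a14 the library labelled LPD oncogene decided the size, and without it the ratios were 0.32 and 0.19. For Cpt1a the library labelled CD control did: with it the ratios were 1.47 and 1.78, and without it 0.16 and 0.48.

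Other measures moved with diet as well. The median of 14 clock genes, of which 12 passed, was 1.13 (0.29 to 1.71 over the pairs), and Npas2, a clock gene, was at 20.4 and 153 CPM on CD and at 3.28 and 6.37 CPM on LPD, although the study's general methods state a common hour and fast for its mouse experiments. Per1, another clock gene, was at 1.48 and 2.35 CPM on CD against 53.02 and 41.6 CPM on LPD. In hepatocyte nuclei the markers of T or NK cells summed to 15.3, 14.3, 3.07 and 5.62 CPM and those of Kupffer cells to 7.28, 8.96, 14.4 and 26.9 CPM, with all 8 and all 7 of them detected in each library. The part of clock, depth, mitochondrial share or these markers in the diet ratios was not tested. Of the wider list, 45 passed, and 5 of them (11.1%) were higher and 4 (8.89%) lower by the same rule, beside the 8.92% and 3.12% of all genes. The following were named after their values were seen. Among the higher ones were Acot3 and Acot4, the peroxisomal thioesterase genes next to Acot1, with log2 ratios of 2.02 to 2.21 and 2.04 to 2.32, and Slc22a5, the carnitine importer, with 0.69 to 0.84 (5 CPM added). Lpin1, a phosphatase that also assists PPARα, had 2.86 to 4.46. Among the lower ones were Nudt7, a peroxisomal CoA hydrolase, with -2.61 to -1.34, and the omega hydroxylase genes Cyp4a12a, with -3.87 to -2.28, and Cyp4a12b, with -4.29 to -3.01, near copies whose reads may be split uncertainly. Acot3 and Acot4 passed the filter through LPD values only, and Cyp4a12a and Cyp4a12b through CD values only. Their calls were thus in part fixed by the filter.

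The labels of injection were compared within each diet. On CD, 31 genes passed and 2 (6.45%) were at least 1.5-fold higher in the library labelled CD oncogene, with none lower, against 6.95% higher and 8.07% lower of 6460 genes. A share of 6.45% higher is near that background. The 2 genes were Cpt1a, with a log2 ratio of 1.31 (1.27 to 1.34), and Crot, with 0.92 (0.90 to 0.95). Ppara, Slc27a2 and Cyp4a10 followed with 0.55, 0.55 and 0.56, and the lowest was Acaa2, a mitochondrial thiolase, at -0.50 (-0.54 to -0.46), followed by Abcd3 and Bdh1 at -0.28 each, Acadl at -0.27 and Acaa1a at -0.26. The medians of the mitochondrial (0.030) and the peroxisomal list (0.0082) were close to 0, against -0.10 over all genes, and changed sign with the stricter filter of nuclei (-0.049 and -0.13). With TMM factors 6 genes were called higher. With the CD labels exchanged, each of these signs would turn. Clock genes moved between these libraries too, and their part was not tested. Npas2 was at 20.4 and 153 CPM, Arntl at 65.5 and 217 CPM, Nr1d1 at 55.1 and 8.09 CPM and Dbp at 15.8 and 0.401 CPM under the labels CD control and CD oncogene, and of 9 clock genes that passed 2 were higher and 4 lower. Of the wider list, 41 genes passed, with 7 higher (17.1%) and 5 lower (12.2%).

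On LPD, 34 genes passed and 4 (11.8%) were at least 1.5-fold higher in the library labelled LPD oncogene, with none lower, against 4.32% higher and 3.94% lower of 6828 genes. They were Cyp4a14, with a log2 ratio of 1.48 (1.44 to 1.53), Acot1 with 1.25 (0.98 to 1.52), Pdk4 with 1.06 (0.84 to 1.28) and Acsl1 with 0.98 (0.96 to 1.01). Acot1 and Pdk4 passed the filter through the higher library alone. With the filter on the mean level, 2 of 32 members (6.25%) and 4.07% of all genes were called higher. Hadhb came next on the scale with 5 CPM added (0.56), followed by Crat (0.55). The lowest 5 were Bdh1, Decr2, Acads, Abcd3 and Hadh, from -0.58 to -0.41. The mitochondrial list had a median of 0.24 and the peroxisomal list of -0.012, against -0.027 over all genes (5 CPM added). With TMM factors 3 genes were called higher and 1 lower. A transgene UMI was seen in 5 of the 5649 hepatocyte nuclei of this library. The markers of Kupffer cells (26.9 against 14.4 CPM) and of stellate cells (96.1 against 45.7 CPM) were also higher in its hepatocyte nuclei than under the label LPD control, and their part in the ratios was not tested. Of the wider list, 43 genes passed, with 9 higher (20.9%) and 1 lower (2.33%).

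The remaining comparison sets, within the library labelled CD control, the 80 hepatocyte nuclei that held a transgene UMI against the 6669 without one. It is free of labels and diet, but 76 of the 80 lay in the pericentral-like end, and they were deeper, with a median of 7570 against 5604 UMIs. Of 32 genes that passed, 9 (28.1%) were at least 1.5-fold higher in positive nuclei and none lower, against 6.40% higher and 6.65% lower of 6689 genes. The count was 5 with TMM factors and 5 with the stricter filter of nuclei. Pdk4 passed through the positive nuclei alone, and with the filter on the mean level 8 of 31 members (25.8%) and 4.77% of all genes were called higher. The 9 included Pdk4 (81.3 against 14.8 CPM, log2 ratio 2.46, 2.07 to 2.83), Cyp4a14 (576 against 242 CPM, 1.25, 1.11 to 1.38) and Cyp4a10 (330.4 against 140.1 CPM, 1.24, 1.05 to 1.42). Eci2 (0.84), Ehhadh (0.76), Bdh1 (0.67), Eci1 (0.67), Acaa1b (0.64) and Hsd17b4 (0.61) completed them. Only Acads and Etfa of the genes that passed had ratios below 0, with intervals that reached past 0. Of the wider list, 44 genes passed, with 11 higher (25%) and 1 lower (2.27%). Of the 11, at least Acot4 and Cyp4a31 passed the filter through the positive nuclei alone, so their calls were in part fixed by it.

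Within the pericentral-like end, where zone was in part held equal, 1 of the 32 genes that passed there (3.1%) was at least 1.5-fold higher, against 1.83% of all genes. A count of 1 is near that background. The gene was Pdk4, at 82.5 CPM in the 76 positive nuclei against 37.01 CPM in the 2067 others (1.16 on the log2 scale, 0.76 to 1.53). With the filter on the mean level, 0 of 31 members and 1.03% of all genes were called higher. Cyp4a10 was at 0.59 (0.41 to 0.77) and Cyp4a14 at 0.52 (0.38 to 0.65), with 5 CPM added just short of the limit. Positive nuclei were deeper here too, with a median of 7929 against 6205 UMIs. Ehhadh was at 0.40 (0.24 to 0.55), Eci2 at 0.28 (0.18 to 0.38) and Hsd17b4 at 0.27 (0.10 to 0.44). For Acaa1b, one of the 5 genes called by zone, the ratio was 0.01 (-0.06 to 0.08). Several genes of the zone score, such as Glul, are known targets of β-catenin, so zone and transgene cannot be told apart by it, and negative nuclei can hold a transgene whose RNA was not captured.

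**Figure D5:**
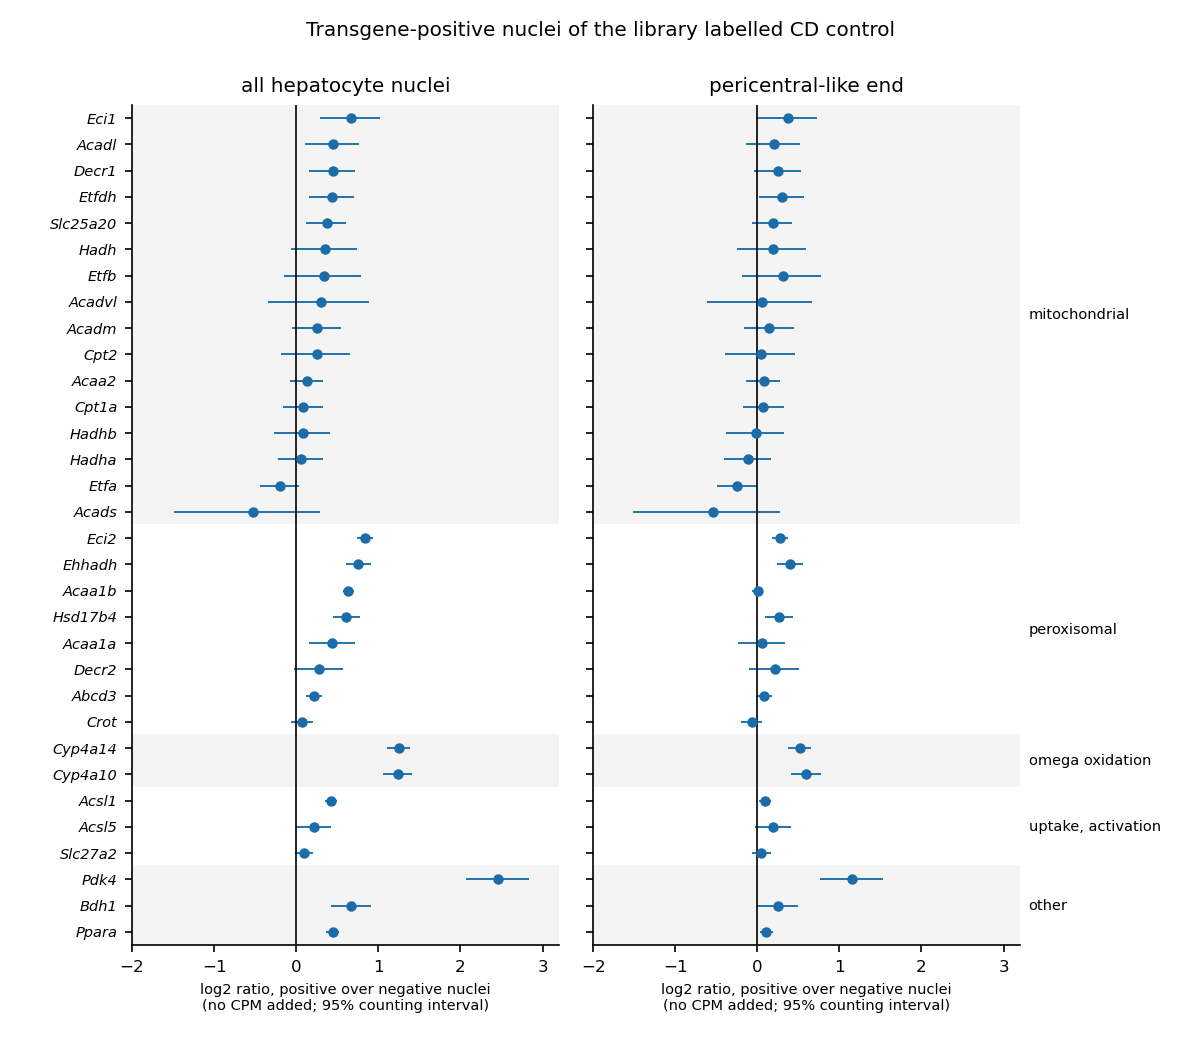
Log2 ratio of transgene-positive over negative nuclei in the library labelled CD control with 95% counting intervals, for all hepatocyte nuclei (left) and for its pericentral-like end (right). On the left the omega pair and Pdk4 lie beyond 1, while on the right Pdk4 alone does.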

How the data were processed

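The authors deposited UMI counts per gene and barcode, not normalized, for 4 libraries of liver nuclei, made with Cell Ranger 9.0.1 (file header) on mm10 (submitters' processing notes) with 2 human transgenes added. Whether intron reads were counted is not given in the sources used here. Nuclei with 200 to 7000 genes and at most 21% mitochondrial UMIs were kept, which are the study's limits, and clustered with its settings (5000 variable genes, 23 of 50 components, 20 neighbours, Louvain at resolution 0.4), but with a rewritten Harmony correction instead of Seurat, so clusters can differ from those of the study, with Python 3.11.15, numpy 2.4.6, scipy 1.17.1 and igraph 0.11.9.

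Clusters 0, 1, 3, 6 and 8 were kept as hepatocytes. The top genes of cluster 0 were all of the mitochondrial genome, and its median mitochondrial share was 7.86%. It held 2427, 2322, 783 and 833 nuclei of the libraries in the order used above. The part of this cluster in the levels and ratios was not tested on its own. Clusters with markers of another class and depth above the library median were left out as doublets, and those led by haemoglobin genes stayed unnamed. No doublet caller was run. Zone needed at least 10 zone marker UMIs a nucleus, and ties were broken at random with a fixed seed.

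Counts were summed per library and set. Genes needed 20 CPM in 1 set and 50 UMIs, or, in an alternative added after the data were seen, also 20 CPM as the mean over the 4 libraries. Lists, and the 1.5-fold rule, use log2 ratios with 5 CPM added, and values with an interval use none. Intervals are exact Poisson for levels and exact conditional for ratios. TMM factors came from edgeR 4.0.16. The calculations were tested on simulated data. Genes were named by a rule: 10 members in every library, and in each contrast up to 5 highest and 5 lowest. The members and lists were chosen with earlier results of these data known, and the naming of clusters and the zone score were set after the counts were seen. Alternatives are given in the closing section. Positions are from GENCODE vM21 (GRCm38) and start regions from RefSeq (GRCm38.p6).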

Additional observations from a re-analysis of the deposited data

How the results depend on the processing

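Of 91 values of the role lists under other settings, 82 moved by less than the spread over pairs or libraries (or, with 1 pair, the counting interval) and 9 moved further. None changed sign where the main value was larger than that spread. Main values within their spread, as the CD label medians, could change sign without being counted as reversed. Of 825 values of single genes, 697 stayed within that spread, 128 moved beyond it and 0 reversed a called direction. With TMM factors, which shift all diet ratios by -0.16 and all CD label ratios by 0.13 in the median over genes, the diet median was 0.12 (mitochondrial) and -0.46 (peroxisomal) and the CD label median was 0.16 and 0.14. With the stricter filter (at least 500 genes and at most 5% mitochondrial UMIs) the mitochondrial diet median was 0.21, and the CD label medians were -0.049 (mitochondrial) and -0.13 (peroxisomal). Without nuclei holding at least 2 UMIs of markers of other cell types, the CD label medians were -0.041 and -0.099. The cause of these moves was not tested.

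Leaving out each library in turn gave diet medians of 0.25 to 0.33 (mitochondrial) and -0.39 to -0.18 (peroxisomal), and zone medians of 0.14 to 0.19 (mitochondrial), 0.41 to 0.52 (peroxisomal) and 1.65 to 1.86 (omega). It raised the genes called higher on LPD from 1 to 2, 4, 6 and 4 when the libraries were dropped in the order used above, since fewer pairs had to pass, and those called lower from 3 to 5, 3, 4 and 3. The zone count stayed at 5 or rose to 6. Counts that moved by over 1.5 times with other settings were the higher genes of the CD label, 6 with TMM factors, and the positive nuclei, 5 with TMM factors and 5 with the stricter filter against 9, and the lower genes of the LPD label, 1 with TMM factors and 1 without nuclei holding other markers against 0. With a filter on the mean level, chosen after the data were seen, 3 genes were called by zone instead of 5 and 2 by the LPD label instead of 4, since Pdk4 and Acot1 were left out. Without nuclei holding other markers 12 genes were higher in positive nuclei. With the haemoglobin-led clusters added, an alternative chosen after the data were seen, 0 genes were called higher on LPD, as with TMM factors and the stricter filter. No paired analysis was possible because each group has 1 library and no numbers pair them. Low genes such as Acot2 and Acot1 are limited by depth, and no interval covers differences between mice.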
